A study of Mus musculus with 6 samples.

Results

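A set of 10 genes for innate sensors and their effectors was followed in cultured mouse peritoneal macrophages: the C-type lectin receptor genes Clec4d, Clec4e, Clec4n, Clec5a and Clec7a, the NOD-like receptor genes Nod2 and Nlrp3, the DNA sensor gene Aim2 and the inflammatory caspase genes Casp1 and Casp4. They were chosen by symbol from the 24454 gene symbols of the deposited count table, with earlier results of these data known. RNA enriched for polyA tails was sequenced in 6 libraries from cells of wild-type male C57BL6/J mice of 6 to 8 weeks. The 3 groups had 2 libraries each: SGA360+LPS (10 µM SGA360 for 1 h, then 10 ng/ml of the bacterial endotoxin LPS for 4 h), LPS (10 ng/ml for 4 h) and vehicle (5 h). SGA360, known by this code name, binds the aryl hydrocarbon receptor (AHR). The labels name no vehicle pretreatment for the LPS group, and they do not say whether libraries came from separate animals or cultures, so p-values measure the spread between these samples only, which may be technical.

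C-type lectin receptors such as Mincle (Clec4e) bind fungal and mycobacterial sugars and glycolipids and signal through the adaptor FcR gamma, the kinase Syk and the CARD9, BCL10 and MALT1 complex to NF-kB. NOD2 senses a bacterial cell wall peptide in the cytosol and signals through the kinase RIPK2. NLRP3 and AIM2 recruit the adaptor ASC (Pycard) and caspase-1 into inflammasomes, which cut pro-interleukin 1 beta, pro-interleukin 18 and gasdermin D. Mouse caspase-4, long called caspase-11, binds LPS in the cytosol. In macrophages, LPS acting through TLR4 is known to raise sensor and cytokine transcripts before an inflammasome is triggered, a step called priming.

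Total counts ran from 7726973 to 9529817 per library. Vehicle replicate 1 stood apart. It detected 10001 symbols where the other 5 libraries detected 12282 to 12643, and Rn45s, for ribosomal RNA, made up 4.92% of its counts where the others had 0.22% to 0.684%. Each count of called members below is therefore also given without it. Levels are in CPM (counts scaled to the TMM library size), or in RPKM (CPM per kilobase of exon) where genes are compared. The 10 macrophage markers summed to 21808 to 25136 CPM with SGA360+LPS, 22608 to 26263 CPM with LPS and 21191 to 23112 CPM with vehicle, a sum made up mostly of Lyz2 (19770, 20518 and 19739 CPM on average in the same groups). Of the 9 macrophage markers tested, 2 rose with LPS (Cd14 by 2.98 and Adgre1 by 1.299 on the log2 scale) and 4 fell (Fcgr1 −2.39, Mertk −2.14, Gata6 −0.48 and Csf1r −0.34), and Itgam, which has several transcript rows, was at 0. These marker changes moved with LPS beside the member results, and their part in them was not tested. By the test used below, 19.4% of all 9389 genes tested rose and 17% fell with LPS against vehicle. The share of macrophage markers that rose is near that background. The 10 neutrophil markers summed to 15.5 to 17.7, 19.1 to 21.3 and 13.1 to 19.5 CPM in the same groups, with Ly6g (1 row) at 0 in all libraries. S100a9 was at 0 too, but it has 2 rows, so its 0 is no measure, while S100a8 averaged 8.77, 11.7 and 6.25 CPM. Of the 3 neutrophil markers tested, 1 (Camp, with 1 row) was higher in both LPS-treated groups than in vehicle by the test used below. Camp had 12 and 11 counts with SGA360+LPS, 19 and 14 with LPS and 0 and 0 with vehicle. Its part in the results below was not tested. Of the 8 dendritic cell markers, 5 have several rows, among them Ccr7, Siglech and Clec9a at 0, so their sum is no full measure. The summed CPM over all 6 libraries ran from 5.58 to 12.1 for dendritic cell, 28.9 to 33.3 for B cell, 2.62 to 9.15 for T and NK cell, 74.1 to 87.8 for mast cell and 4413 to 5372 for fibroblast markers. These sums are no full measure either. Cd79b (B cell), Lck and Klrb1c (T and NK cell) and Ms4a2 and Kit (mast cell) have several rows and were at 0. Ighm was absent, and 2 of the 6 fibroblast markers (Dcn and Pdgfra) have several rows. Among 5 fibroblast markers tested, 1 fell with LPS against vehicle (Col3a1, −0.41 on the log2 scale) and 4 had no call. That share is near the 17% of all genes tested that fell. Col3a1 was also lower with SGA360+LPS against vehicle (−0.35). The 8 mesothelial markers summed to 345 to 364 CPM with SGA360+LPS, 352 to 353 CPM with LPS and 491 to 516 CPM with vehicle. Of these 8, 3 fell with LPS by the test used below and 5 had no call, with all 8 estimates below 0. The 3 were Lrrn4 (81.1 CPM with LPS, against 167 CPM with vehicle), Upk1b (38.9 against 61.5 CPM) and Upk3b (45.9 against 63.7 CPM). The mesothelial sum moved with LPS, with the largest part of the change in Lrrn4. The part of this change in the results below was not tested. In bulk RNA, fewer cells of a type and less RNA per cell cannot be told apart.

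The table gave usable values for 6 of the 10 genes. Clec4e, Nod2, Nlrp3, Aim2, Casp1 and Casp4 each had 1 transcript row, from 1784 counts in all for Aim2 to 153113 for Clec4e, and all 6 passed the filter on low counts. The other 4 lectin genes had 2 or 3 transcript rows each. Clec4d (2 rows), Clec4n (3 rows) and Clec7a (3 rows) had 0 counts in each of the 6 libraries, and Clec5a (2 rows) had 2 counts in LPS replicate 2, 1 in SGA360+LPS replicate 1 and 0 elsewhere. A count of 0 allows up to 3 counts, or 0.312 to 0.399 CPM depending on the library, counting error only.

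These zeros are no measure of the expression of Clec4d (the receptor MCL), Clec4n (Dectin-2, a receptor for fungal mannans), Clec5a (MDL-1, which pairs with the adaptor DAP12) or Clec7a (Dectin-1, the beta-glucan receptor). The rows of each gene share their start and end and differ in exonic length by 3 bases for Clec4d, 103 for Clec4n, 76 for Clec5a and 136 for Clec7a. Both Clec4d rows match a single GENCODE transcript, and so do 2 of the Clec7a rows. Of the 3 Clec4n rows, 2 have 0 exonic bases of their own and the other has 13. Across the table the 5639 symbols with several rows carried 1.87% of the counts. Of them, 51.0% had no count in any library, as did 37.1% of the 18815 single-row symbols. The sources used here do not say how reads shared by several rows were counted, and its part in the zeros was not tested. None of these 4 genes was tested, and beyond their positions and promoter windows no value is given for them below.

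In mm10, as the table gives them, Clec4n (6:123229843 to 123247024), Clec4d (123262107 to 123275268) and Clec4e (123281789 to 123289871, minus strand) lie next to each other on chromosome 6, with 15082 and 6520 bases between them. Clec7a (129461591 to 129472779, minus) and Clec5a (40574898 to 40585805, minus) lie on the same chromosome. Casp1 (5298517 to 5307281) and Casp4 (5308849 to 5336791) are neighbours on the plus strand of chromosome 9, 1567 bases apart. Nod2 spans chromosome 8 from 88647347 to 88688474, Nlrp3 chromosome 11 from 59542686 to 59566956 and Aim2 chromosome 1 from 173420604 to 173466036, all on the plus strand. GENCODE annotates each as protein-coding except Clec7a, which this release lists as a polymorphic pseudogene, and no other annotated gene overlaps any of the 10 spans. Counts are of reads assigned to the exons of a transcript.

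Because Casp1 and Casp4 lie side by side but differ in the size of their rise, and Clec4e rose most of the measured members while Nlrp3 is the primed inflammasome sensor, the 250 bases before the start of these 4 genes are shown from RefSeq (GRCm38.p6, the mm10 build), 5′ to 3′ on the gene's strand. Capitals mark matches, on either strand, to 6 motifs: the kappaB consensus of NF-kB, the interferon element ISRE, the AP-1 site TGANTCA, the PU.1 core GAGGAA, the CRE TGACGTCA and the C/EBP site TTGCNNAA.
Clec4e, chr6:123289872-123290121, minus strand: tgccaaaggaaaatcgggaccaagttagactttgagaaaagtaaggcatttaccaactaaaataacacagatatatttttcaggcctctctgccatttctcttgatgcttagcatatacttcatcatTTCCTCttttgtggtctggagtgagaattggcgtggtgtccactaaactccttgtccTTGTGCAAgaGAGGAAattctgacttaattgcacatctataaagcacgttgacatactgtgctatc
Nlrp3, chr11:59542436-59542685, plus strand: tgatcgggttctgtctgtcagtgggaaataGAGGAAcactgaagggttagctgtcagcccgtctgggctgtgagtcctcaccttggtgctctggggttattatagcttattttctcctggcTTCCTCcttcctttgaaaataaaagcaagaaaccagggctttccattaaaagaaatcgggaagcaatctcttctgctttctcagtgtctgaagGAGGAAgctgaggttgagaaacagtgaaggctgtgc
Casp1, chr9:5298267-5298516, plus strand: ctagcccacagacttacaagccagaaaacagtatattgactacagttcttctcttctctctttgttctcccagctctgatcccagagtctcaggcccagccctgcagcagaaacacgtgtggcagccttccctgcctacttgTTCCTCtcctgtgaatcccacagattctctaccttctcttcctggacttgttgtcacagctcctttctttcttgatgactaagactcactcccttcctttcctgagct
Casp4, chr9:5308599-5308848, plus strand: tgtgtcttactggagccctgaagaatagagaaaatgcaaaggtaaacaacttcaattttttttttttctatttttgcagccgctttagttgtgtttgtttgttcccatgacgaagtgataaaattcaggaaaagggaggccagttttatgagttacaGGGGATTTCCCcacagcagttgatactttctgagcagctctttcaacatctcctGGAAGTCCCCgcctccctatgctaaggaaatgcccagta

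The Casp4 window held kappaB matches at 2 places. GGGGATTTCC lay 93 to 84 bases before the start and overlapped GGGATTTCCC at 92 to 83, which matches on both strands, and GGAAGTCCCC (a match on the minus strand) lay at 39 to 30. The Casp1 window held no kappaB match and 1 PU.1 core, at 108 to 103. In the Clec4e window a C/EBP match (TTGTGCAA, minus strand) lay at 66 to 59, close to a PU.1 core at 56 to 51, with another PU.1 core at 123 to 118. The Nlrp3 window held 3 PU.1 cores. Of the 10 genes, 9 had a window in the RefSeq table. Of these, 7 held the PU.1 core (23.3% of all 32817 such windows), 1 a kappaB match (7.25%) and 1 a C/EBP match (9.57%). None of the 9 held the interferon element (2.97%), the AP-1 site (6.75%) or the CRE (1.55%). The Nod2 window held none of the 6. The windows follow the start in the deposited table. GENCODE starts Nlrp3 at 59541568 and Aim2 at 173350879, upstream of those starts, so the windows of these genes lie inside the GENCODE gene. A match is a run of letters in this window and not a measured binding site. With LPS against vehicle, Casp4 rose by 2.60 on the log2 scale. The measured genes without a kappaB match rose by 6.07 (Clec4e), 4.32 (Nod2), 4.29 (Nlrp3), 1.21 (Casp1) and 0.52 (Aim2). A link between matches and the size of a rise was not tested.

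Per kilobase of exon, Clec4e was the highest of the 6 genes in both LPS-treated groups and Casp1 was the highest in vehicle. Clec4e averaged 1667 ± 240 RPKM with SGA360+LPS, 1887 ± 368 RPKM with LPS and 28.1 ± 0.783 RPKM with vehicle (SD, n = 2 each). That placed it 28th, 22nd and 2476th among the 18815 symbols with 1 row. In LPS libraries the order below Clec4e was Nlrp3 (167 ± 11.1 RPKM), Casp1 (122 ± 5.83), Casp4 (72.7 ± 1.98), Nod2 (18.8 ± 0.217) and Aim2 (16.2 ± 1.16). The SGA360+LPS libraries had the same order, from 139 ± 8.81 RPKM for Nlrp3 to 13.1 ± 0.171 RPKM for Aim2. In vehicle the order was Casp1 (52.7 ± 5.26 RPKM), Clec4e, Casp4 (11.96 ± 0.814), Aim2 (11.3 ± 0.928), Nlrp3 (8.57 ± 0.719) and Nod2 (0.932 ± 0.364). Casp4 and Aim2 overlapped in vehicle, and no other neighbours in these 3 orders overlapped between libraries of a group.

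**Figure D1:**
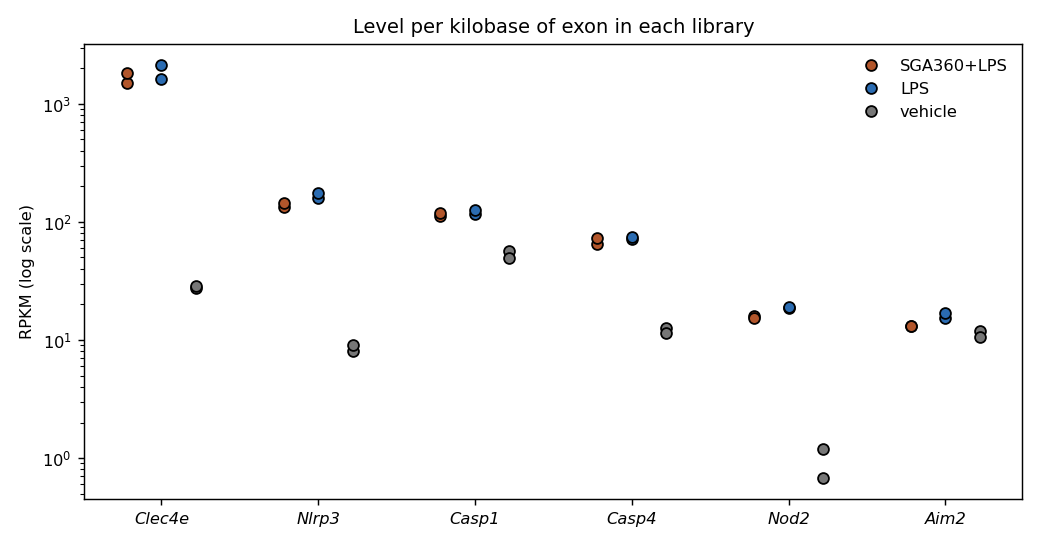
Level of the 6 measured genes per kilobase of exon (RPKM, log axis) in each of the 6 libraries, by group. Clec4e lies between 1497 and 2148 RPKM in the 4 LPS-treated libraries and averages 28.1 RPKM in vehicle, while Aim2 lies between 10.6 and 17.0 RPKM throughout.

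LPS against vehicle shows how these sensor genes stood after endotoxin alone. All 6 measured members rose by edgeR's quasi-likelihood test, where 19.4% of the 9389 genes tested rose and 17% fell. The 6 log2 fold changes ran from 0.52 for Aim2 to 6.07 for Clec4e, with a median of 3.45 beside −0.01 over all genes tested. As the members and the lists below were chosen with earlier results of these data known, the values over all genes are background only. For each of the 6, both LPS libraries lay above both vehicle libraries, as for 33.1% of all genes tested. All 6 were also called without vehicle replicate 1, and 5 without LPS replicate 2.

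Clec4e, which encodes Mincle, had 4107 and 5423 CPM with LPS, against 69.4 and 72.2 CPM with vehicle. The LPS libraries were far above the vehicle libraries and differed from each other by more than those did. The log2 fold change was 6.07 (SE 0.16; adjusted p = 1.32e-09), the 37th highest of 9389.

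Nod2 had 86.5 and 87.9 CPM with LPS, against 3.13 and 5.51 CPM with vehicle. It was the lowest of the 6 genes in vehicle, where it rested on 28 and 53 counts, and its log2 fold change of 4.32 (SE 0.18; adjusted p = 4.50e-08) was 4.00 without vehicle replicate 1 and 4.81 without vehicle replicate 2. Nlrp3, the inflammasome sensor whose transcript is limiting in resting macrophages, had 643 and 706 CPM with LPS, against 32.5 and 36.6 CPM with vehicle. Its log2 fold change was 4.29 (SE 0.10; adjusted p = 6.39e-10), so that these NOD-like receptor genes ranked 86th (Nod2) and 88th (Nlrp3) by size of the rise.

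Aim2, the sensor of double-stranded DNA in the cytosol, changed least. It had 39.1 and 43.3 CPM with LPS, against 30.4 and 27.0 CPM with vehicle. The groups did not overlap, but the log2 fold change was 0.52 (SE 0.13; adjusted p = 0.0102), and without LPS replicate 2 the call was lost (0.46, adjusted p = 0.103; 0.00114 to 0.103 over the alternatives). Nlrp3 and Aim2 changed places: per kilobase, Aim2 was at 1.48 and 1.17 times Nlrp3 in the vehicle libraries and at 0.0962 and 0.0970 times Nlrp3 with LPS.

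Casp1, the protease of the canonical inflammasome, had 179 and 192 CPM with LPS, against 86.0 and 74.6 CPM with vehicle. It rose by 1.21 on the log2 scale (SE 0.09; adjusted p = 2.99e-06). Casp4 had 104 and 108 CPM with LPS, against 18.2 and 16.5 CPM with vehicle, a rise of 2.60 on the log2 scale (SE 0.11; adjusted p = 4.90e-08). The 2 neighbours thus rose by different amounts. Per kilobase, Casp4 was at 0.606 and 0.589 times Casp1 with LPS, against 0.222 and 0.232 times with vehicle. The LPS and vehicle ratios did not overlap, and no test was made on 2 libraries against 2.

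**Figure D2:**
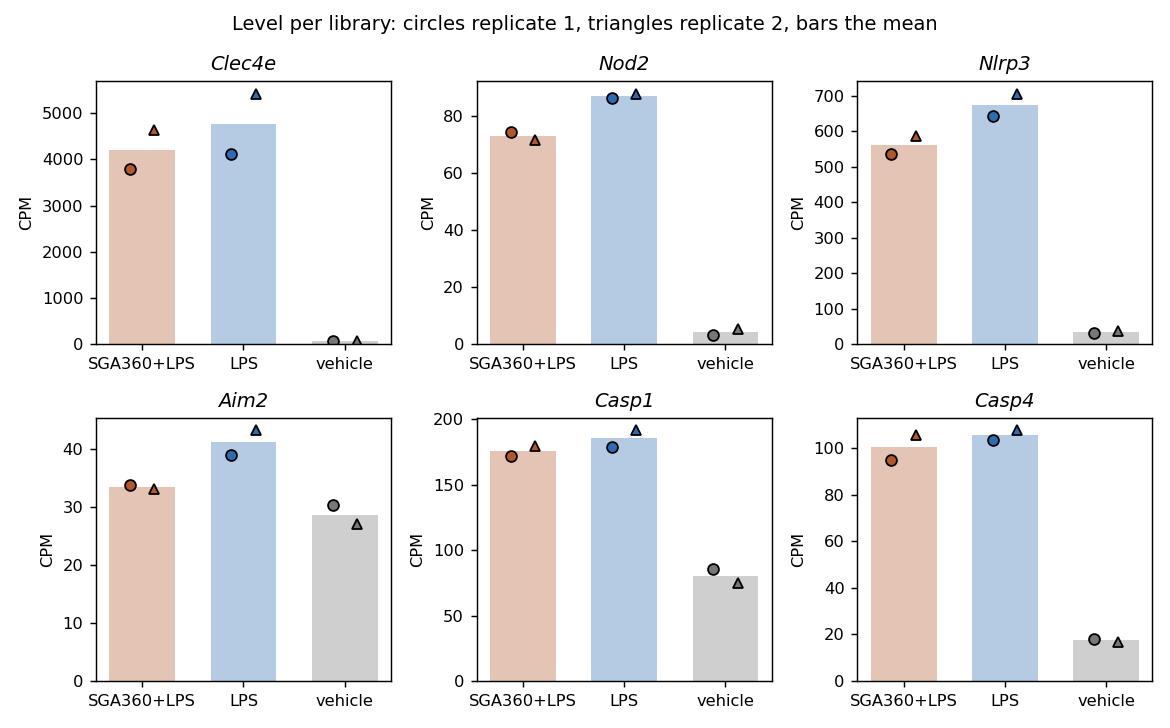
Level in CPM of each measured gene per library, with the 3 groups on the horizontal axis, circles for replicate 1, triangles for replicate 2 and bars at the mean. All LPS-treated libraries lie above vehicle for the 6 genes, and the SGA360+LPS and LPS libraries overlap for Clec4e, Casp1 and Casp4.

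SGA360+LPS against LPS addresses whether AHR ligand pretreatment altered the response. None of the 6 measured members passed edgeR's test, where 0.0746% of genes tested fell (7 genes) and 0 rose. DESeq2 called 0 of the 6 as well. Of the 6, 2 (Nlrp3 and Aim2) had an unadjusted p under 0.05, as did 276 of all 9389 genes. All 6 estimates were below 0, with a median log2 fold change of −0.22 beside 0.00 over all genes tested. They share the same libraries and so are not separate evidence. Clec4e turned to 0.04 without LPS replicate 2, and Casp4 to 0.005 without SGA360+LPS replicate 1. For Nod2, Nlrp3 and Aim2 the SGA360+LPS values were each under either LPS value, as for 19.6% of genes tested, and for the other 3 the groups overlapped. Without vehicle replicate 1 the count of members called was also 0.

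Nlrp3 had 535 and 586 CPM with SGA360+LPS, against 643 and 706 CPM with LPS. Its mean was 83.1% of the LPS mean, a log2 fold change of −0.27 (95% interval −0.44 to −0.09, for this gene alone). The adjusted p in edgeR was 1.00, with 0.215 the lowest over the alternatives. Aim2 had 33.7 and 33.1 CPM with SGA360+LPS, against 39.1 and 43.3 CPM with LPS, or 81.2% of the LPS mean (−0.30, 95% interval −0.59 to −0.01). Nod2 had 74.5 and 71.6 CPM, against 86.5 and 87.9 CPM with LPS, or 83.7% (−0.26, 95% interval −0.55 to 0.04). The 3 sensor estimates were close in size, and none passed the test.

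Clec4e had 3780 and 4637 CPM with SGA360+LPS, against 4107 and 5423 CPM with LPS. The groups overlapped, and the log2 fold change of −0.18 (95% interval −0.46 to 0.10) was 0.04 without LPS replicate 2. Casp1 had 172 and 180 CPM with SGA360+LPS, against 179 and 192 CPM with LPS (−0.08, 95% interval −0.27 to 0.12). Casp4 had 95.005 and 106 CPM with SGA360+LPS, against 104 and 108 CPM with LPS (−0.07, 95% interval −0.29 to 0.14). The caspase means stood at 94.9% and 95.1% of their LPS means. A p that misses the threshold does not show equal levels, and these intervals give the sizes the data allow.

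**Figure D3:**
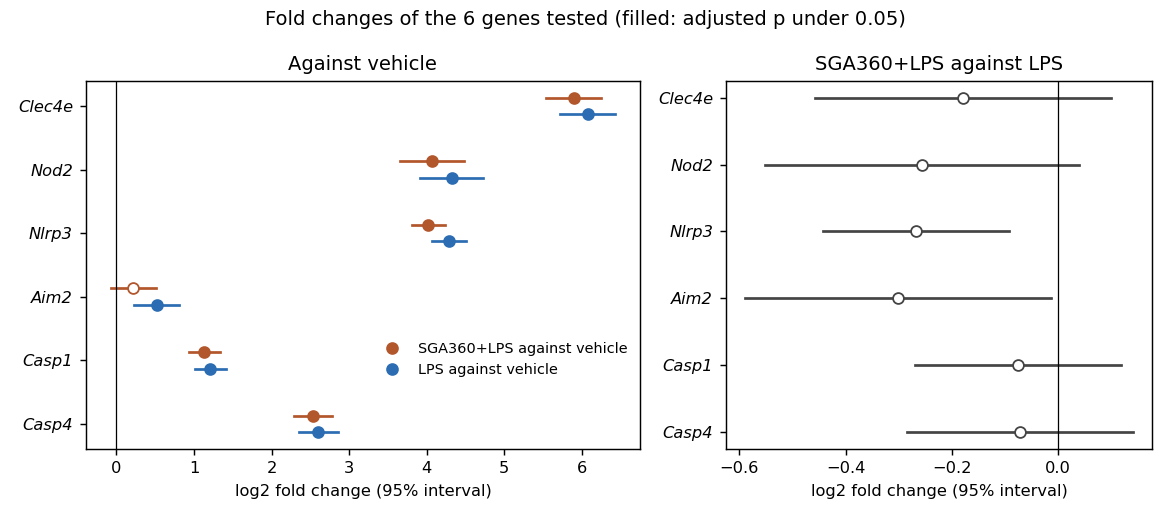
Log2 fold changes of the 6 measured genes with 95% intervals, SGA360+LPS and LPS each against vehicle (left) and SGA360+LPS against LPS (right, finer axis). Against vehicle 11 of the 12 estimates are called (filled), the exception being Aim2 with SGA360+LPS at 0.22, and on the right all 6 lie between −0.30 and −0.07 with no call.

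Set against vehicle, SGA360+LPS libraries showed 5 of the 6 measured members higher, where 17.9% of genes tested rose and 15.2% fell. The comparison shares the vehicle libraries with that of LPS alone. The log2 fold changes were 5.89 (SE 0.16) for Clec4e, 4.06 (SE 0.18) for Nod2, 4.02 (SE 0.09) for Nlrp3, 2.53 (SE 0.11) for Casp4 and 1.13 (SE 0.09) for Casp1, with adjusted p of 5.40e-06 or lower in edgeR. Aim2 stood at 0.22 (SE 0.13; adjusted p = 0.231; 0.0699 to 0.473 over the alternatives). For all 6 genes both SGA360+LPS libraries lay above both vehicle libraries, as for 32.9% of genes tested. The same number, 5, was called without vehicle replicate 1.

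Around Clec4e, 11 of 16 adaptor and Syk-CARD9 genes were tested with LPS against vehicle, and 5 rose and 2 fell. Of all genes tested, 19.4% rose and 17% fell, and the share of this list that fell is near that background. Malt1, the protease subunit of the complex, had 867 ± 12.1 CPM with LPS, against 44.7 ± 5.81 CPM with vehicle (log2 fold change 4.27, SE 0.09). Fcer1g, the adaptor of Mincle, had 971 ± 7.07 CPM with LPS, against 597 ± 43.3 CPM with vehicle (0.70, SE 0.08), and Bcl10 rose by 0.86 (SE 0.09). Syk (1.49) and Prkcd (1.45) rose too, but both have 2 transcript rows and few counts, so their values are uncertain. Card9 fell to 36.1 ± 0.00715 CPM with LPS, against 56.7 ± 1.62 CPM with vehicle (−0.65, SE 0.11). Tyrobp, encoding DAP12, was lower (−0.29, SE 0.07; adjusted p = 0.0116), a call lost without LPS replicate 1 (0.0526), LPS replicate 2 (0.105) or vehicle replicate 1 (0.0559). Plcg2 (0.26) and Vav3 (−0.08) had no call, but Plcg2 passed without vehicle replicate 2 (0.42, adjusted p = 0.00072) and with no filter on low counts (0.28, adjusted p = 0.0101).

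Of 26 other C-type lectin genes 25 were in the table, 12 of them with several rows, and of the 10 tested 5 rose and 2 fell with LPS, where 19.4% of all genes tested rose and 17% fell, so the falls are again near the background. The activation marker Cd69 had 23.9 ± 2.72 CPM with LPS, against 0.735 ± 0.724 CPM with vehicle (4.96, SE 0.38; its vehicle counts were 2 and 12), and the fold change was 4.26 without vehicle replicate 1 and 6.67 without vehicle replicate 2. Olr1, the oxidised LDL receptor gene, stood at 3.30 with 3 transcript rows and is uncertain. Ly75, an endocytic receptor gene, rose by 1.74 and Clec4a1 by 0.75. The mannose receptor gene Mrc1 fell to 159 ± 14.7 CPM with LPS, against 291 ± 3.91 CPM with vehicle (−0.87, SE 0.08). Clec2d (0.33) and Colec12 (−0.22) had no call, but without vehicle replicate 1 both passed, at 0.56 and −0.31.

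In a list of 17 genes for NOD sensors, NOD signalling and related genes, 7 of the 11 tested rose with LPS and 0 fell. Over all genes tested, 19.4% rose and 17% fell. Ripk2 had 73.1 ± 3.21 CPM with LPS, against 20.2 ± 6.82 CPM with vehicle (1.85, SE 0.18). Birc3, a ubiquitin ligase gene of the pathway, rose by 2.28, Nlrc5, a NOD-like transactivator of MHC class I genes, by 2.07, and Slc15a3, a lysosomal peptide transporter gene, by 1.63. Tnfaip3 was called too, but with 2 transcript rows and 0 and 1 vehicle counts its size is uncertain. Slc15a4 (0.08) and Otulin (−0.32) had no call, and Otulin was at 0.03 without vehicle replicate 1 and at −0.58 and called without vehicle replicate 2.

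Among inflammasome sensors, adaptors and regulators, 11 of 21 tested genes rose and 7 fell with LPS, beside 19.4% and 17% of all genes tested. The adaptor gene Pycard moved against Nlrp3, with 71.1 ± 0.923 CPM with LPS, against 155 ± 20.9 CPM with vehicle (−1.13, SE 0.11; adjusted p = 1.95e-05). The guanylate-binding protein genes Gbp5 (7.09, SE 0.12) and Gbp2 (5.07, SE 0.12) and the interferon-inducible gene Ifi205 (5.05, SE 0.21) were among the largest rises. Gbp2, Gbp5 and Ifi205 belong to families of similar genes, whose reads the counting may have split. Mefv, encoding pyrin, had 15 and 10 counts with LPS, against 0 and 0 with vehicle, and its call was lost without LPS replicate 1 (adjusted p = 0.0711). Nlrp1b, a sensor gene with a near copy in Nlrp1a, had 1 and 1 counts with LPS, against 26 and 49 with vehicle. Mefv has 3 transcript rows and Nlrp1b has 2, so the low counts and zeros of these genes are uncertain. Nek7 (−0.72) and Nlrp1a (−0.67) had no call, and Nek7, a partner of NLRP3, has 2 rows and at most 29 counts per library.

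Of the substrates and outcome genes, 7 of 12 tested rose and 2 fell with LPS. All genes tested gave 19.4% rising and 17% falling, so the falls here are near the background. Il1b had 1260 ± 50.6 CPM with LPS, against 0.676 ± 0.955 CPM with vehicle, where its counts were 0 and 13. Its fitted log2 fold change of 10.79 was 9.87 without vehicle replicate 1 and 16.39 without vehicle replicate 2, which leaves only a 0. Il1a rose by 5.29 (SE 0.13), Il18 by 2.70 (SE 0.16) and Gsdmd, encoding the pore former gasdermin D, by 1.17 (SE 0.09). Casp12 (−0.14) had no call. Casp8 (1.14) had none either. Its log2 fold change was 4.65 without vehicle replicate 2, since its vehicle counts were 1 and 26. With 3 transcript rows and few counts, the Casp8 values are uncertain.

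With SGA360+LPS against LPS, 2 genes of these 5 lists were called, both lower and both interleukin 1 genes, and 0 were higher. Il1b had 613 ± 56.9 CPM with SGA360+LPS, against 1260 ± 50.6 CPM with LPS (−1.04, SE 0.14; adjusted p = 0.0393). Il1a had 404 ± 10.2 CPM with SGA360+LPS, against 756 ± 52.8 CPM with LPS (−0.90, SE 0.10; adjusted p = 0.00961). The Il1b call was lost without any 1 of the 4 LPS-treated libraries (adjusted p from 0.29 to 1.00) and in DESeq2 (0.999). The Il1a call was lost when LPS replicate 2 was left out (0.158) and when either SGA360+LPS library was (0.328 for replicate 1, 0.264 for replicate 2). The fold changes stayed between −1.14 and −0.95 for Il1b and between −0.98 and −0.83 for Il1a over the alternatives. On the SGA360+LPS and LPS libraries alone both were called (adjusted p = 4.17e-06 for Il1b and 4.19e-06 for Il1a), as they were without either vehicle library (1.21e-06 or lower). Il18 was at 34.4 ± 2.87 CPM with SGA360+LPS and 45.4 ± 1.44 CPM with LPS (−0.40, SE 0.14; adjusted p = 1.00). Pycard (0.10), Gsdmd (−0.09), Ripk2 (−0.10), Fcer1g (−0.14), Card9 (0.14), Tyrobp (0.12), Syk (0.11) and Nek7 (0.39) had no call.

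With SGA360+LPS against vehicle the lists gave counts near those of LPS alone, which shares the vehicle libraries. There were 5 higher and 1 lower of 11 adaptor and Syk-CARD9 genes, and 4 and 2 of 10 other lectin genes. The NOD genes gave 6 and 0 of 11, the inflammasome genes 11 and 8 of 21 and the substrate genes 7 and 2 of 12. Over all genes tested, 17.9% rose and 15.2% fell. The falls in the adaptor, other lectin and substrate lists are near that background. Malt1 was at 4.13 (SE 0.09), Cd69 at 4.42 (SE 0.39; 3.72 without vehicle replicate 1 and 6.13 without vehicle replicate 2), Ripk2 at 1.75 (SE 0.18), Pycard at −1.03 (SE 0.11), Gbp5 at 6.98 (SE 0.12), Il18 at 2.30 (SE 0.16) and Gsdmd at 1.08 (SE 0.09). Zbp1, a nucleic acid sensor gene, rose by 4.11 (SE 0.17), with 2 transcript rows. The median log2 fold changes of the 5 lists, in the same order, were 0.25, 0.20, 1.66, 0.32 and 0.98, beside −0.01 over all genes tested. With LPS against vehicle they were 0.70, 0.33, 1.08, 0.39 and 1.06, and with SGA360+LPS against LPS they were −0.04, −0.13, −0.06, 0.02 and −0.13.

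**Figure D4:**
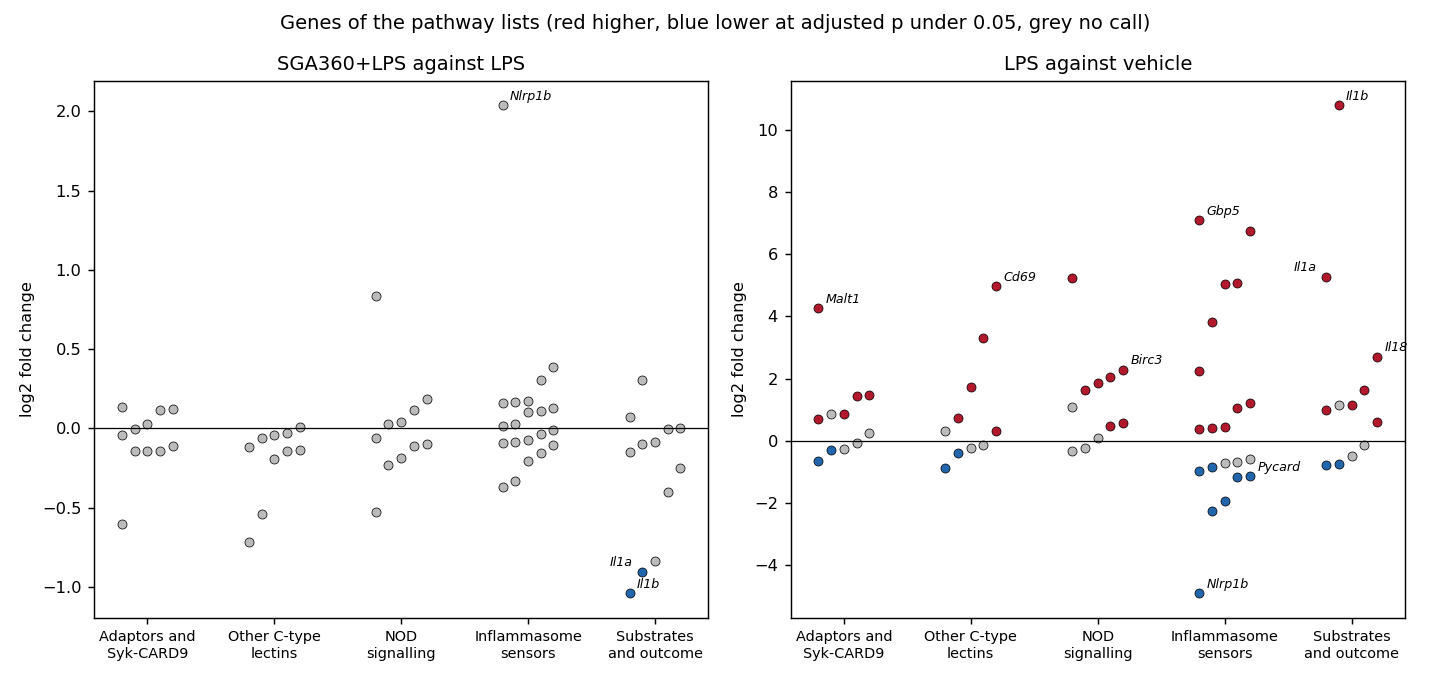
Log2 fold change of each tested gene of the 5 pathway lists, SGA360+LPS against LPS (left) and LPS against vehicle (right), coloured by call, spread sideways for legibility. On the right the lists hold rises up to 10.79 (Il1b) beside falls such as Pycard at −1.13, and on the left only Il1b and Il1a are called. Nlrp1b, at 2.04 on the left, has 2 transcript rows and rests on 5 and 4 counts with SGA360+LPS, against 1 and 1 with LPS.

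Genes nearest to each member in their profile over the 6 libraries were found by the root mean square distance of log2 CPM centred on the mean, among 7571 genes. Clec4e lay nearest to the prostaglandin E synthase gene Ptges (0.12), the formyl peptide receptor gene Fpr2 (0.14) and the cytokine gene Il27 (0.21). Nod2 lay nearest to Hcar2 (0.05), Rtp4 (0.14) and Malt1 (0.16), and Nlrp3 to Malt1 (0.08), Tnip3 (0.09) and Traf1 (0.09), the last 2 of which encode NF-kB regulators. Aim2 lay nearest to Ube2d3 (0.04), Tmsb4x (0.05) and Ptges3 (0.05). Casp1 lay nearest to Cd200 (0.02), Rnf145 (0.06) and Olfr1033 (0.06), and Casp4 to Mmp9 (0.06), Mapkapk2 (0.07) and Lcp2 (0.07). With 3 groups of 2 libraries, such a distance mostly compares the group means.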

How the data were processed

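The deposited table holds raw read counts in 6 library columns and 34751 RefSeq transcript rows. The submitters' processing notes name TopHat2 2.0.13, HTSeq 0.5.4p3 and mm10. The sources used here do not give the annotation version, the strand setting or the treatment of shared reads. Table positions are given as start plus 1. Counts were summed per symbol, filtered by filterByExpr (minimum count 10, which left 9389 genes) and TMM-scaled. The quasi-likelihood test of edgeR 4.0.16 (R 4.3.3) was fitted across the 3 groups, with 3 residual degrees of freedom, and p-values were adjusted by Benjamini-Hochberg across the 9389 genes (threshold 0.05). SE is the log2 fold change over the root of F, and 95% intervals use the matching t distribution. RPKM divides CPM by the deposited exon length. Libraries of a group differed beyond sampling noise (mean chi-square per gene 3.98 for SGA360+LPS, 5.92 for LPS and 41.6 for vehicle). The common biological coefficient of variation was 0.0951, against 0.0540 for the SGA360+LPS and LPS libraries alone.

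Members, lists and motifs were chosen with earlier results of these data known. Named are all 10 members, up to 5 called genes per list and comparison with at least 1 CPM, up to 2 abundant genes per list without a call, 10 set pathway genes and the 3 nearest genes per member; 1 gene the rule names is not reported here. Nlrp1b in SGA360+LPS against LPS was named after its value was seen. Alternatives were DESeq2 1.42.0, RLE scaling, no filter, a 5 CPM filter, the 2 groups alone, a replicate block and leaving out each library. The edgeR fit was also run on simulated counts with the same spread in all groups. The libraries here differed in spread by group, so that run does not check the calls.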

Additional observations from a re-analysis of the deposited data

How the results depend on the processing

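The 6 members called with LPS against vehicle remained called in every alternative run except that Aim2 was lost without LPS replicate 2, and the count of members called ran from 5 to 6. The count of members called was 0 between SGA360+LPS and LPS, and 5 between SGA360+LPS and vehicle, in all 12 alternatives. Over the alternatives run, the log2 fold changes with LPS against vehicle ranged over 5.87 to 6.28 (Clec4e), 4.00 to 4.81 (Nod2), 4.22 to 4.39 (Nlrp3), 0.46 to 0.63 (Aim2), 1.13 to 1.33 (Casp1) and 2.55 to 2.69 (Casp4). Leaving out 1 library turned the sign of 6 estimates, none called with all 6 libraries (Otulin was called without vehicle replicate 2): Clec4e ran from −0.368 to 0.0384, Casp4 from −0.155 to 0.00539 and Syk from −0.0408 to 0.280 with SGA360+LPS against LPS, and Vav3 from −0.146 to 0.0195, Casp12 from −0.256 to 0.00455 and Otulin from −0.581 to 0.0311 with LPS against vehicle. Of 1240 values for single genes, 1196 kept direction and side of the threshold, 20 lost and 18 gained a call and 6 changed sign.

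Over all genes, LPS against vehicle gave 3413 calls and from 2091 to 5494 with 1 library left out, SGA360+LPS against vehicle 3107 and from 1831 to 5315, and SGA360+LPS against LPS 7 and from 0 to 16; the last gave 11 with DESeq2, 17 with no filter and 12 on the 2 groups alone. The 2 calls among substrate genes there became 1 with DESeq2 and 1 with the replicate block, and ran from 0 to 2 with 1 library left out. The 19 calls among inflammasome genes in SGA360+LPS against vehicle ran from 12 to 19 with 1 library left out (12 without SGA360+LPS replicate 1). The replicate numbers share no stated source, and deviations of same-numbered libraries correlated at 0.16 between SGA360+LPS and LPS, −0.01 between LPS and vehicle and 0.01 between SGA360+LPS and vehicle; the block gave 3434, 5 and 3136 calls in LPS against vehicle, SGA360+LPS against LPS and SGA360+LPS against vehicle, and 6, 0 and 5 members. Of the named genes the block lost the call of Il1b in SGA360+LPS against LPS (adjusted p = 0.0517) and added Clec2d in LPS against vehicle (0.0311) and Tyrobp in SGA360+LPS against vehicle (0.0389), and it changed no other call. Separate tests of transcript rows were not run, since no row of the 4 genes with several rows had enough counts. With 2 libraries a group, small differences such as those between SGA360+LPS and LPS are measured only as finely as their intervals show.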
